A study of Mus musculus with 32 samples.

Results

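The genes described here encode the RNA polymerases of the nucleus, their general transcription factors and the Mediator complex. They are the protein-coding genes whose mouse symbol begins with Polr1, Polr2 or Polr3 and a letter from a to m, with Taf or Med and a number, or with Gtf2. The rule found 97 of the 55385 genes listed for each library, of which 21897 were protein-coding. By complex they comprised 5 genes of RNA polymerase I (Pol I), 13 of Pol II, 10 of Pol III, 4 of the Pol I factor SL1 and 16 of TFIID. The general factors TFIIA, TFIIB, TFIIE, TFIIF and TFIIH gave 3, 1, 2, 2 and 5 genes, and the TFII-I family gave 3. Mediator gave 7 head, 9 middle, 1 scaffold, 9 tail or metazoan and 4 kinase-module genes. The rule also took in Taf5l and Taf6l, 2 genes of the SAGA coactivator, and Taf15, which encodes an RNA-binding protein. All 97 passed the filter of at least 10 counts summed over the libraries of a fit and were tested in every comparison.

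Pol I transcribes the large ribosomal RNA precursor, Pol II transcribes messenger RNA and Pol III transcribes transfer RNA and other short RNAs. At a Pol II promoter, TFIID binds the core promoter, TFIIA and TFIIB join it, and TFIIF, TFIIE and TFIIH bring in and open the DNA for the polymerase, while Mediator connects the assembly to factors bound at enhancers. The mouse egg carries a store of maternal RNA, most of which is cleared after fertilization, and the mouse embryo begins its own transcription in a minor wave in the zygote and a major wave at the 2-cell stage.

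Total RNA was sequenced from wild-type mouse embryos made by in vitro fertilization, from oocytes and sperm of B6D2F1/J mice aged 6 to 8 weeks, and cultured in KSOM medium. Zygotes and embryos of the early and late 2-cell stages had been exposed to 10 µM A-485, a catalytic inhibitor of the histone acetyltransferases CBP and p300, or to its solvent DMSO between 4 and 20 hours post in vitro fertilization (hpi). In a separate experiment, late 2-cell embryos had been exposed to 50 nM trichostatin A (TSA), an inhibitor of histone deacetylases, or to DMSO between 8 and 28 hpi. Each of the 8 groups had 2 libraries, and because nothing states that these came from separate collections of embryos, the p-values measure the spread between libraries, which may be technical. Exposure to A-485 was transient and ended at the early 2-cell stage. Zygotes collected before 20 hpi had therefore had only part of that window. Late 2-cell embryos of the A-485 experiment were collected after the drug had been washed out, whereas TSA exposure ran to 28 hpi. The number of embryos in a library is not given in the sources used here.

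Libraries held 13206163 to 32585987 counts, with the 2 late 2-cell A-485 libraries the shallowest. All 4 oocyte markers examined (Zp3, Gdf9, Nlrp5, Oosp1) were above 1 FPKM in every group. All 4 markers of the 2-cell stage (Zscan4c, Zscan4d, Zfp352, Duxf3) were above 1 FPKM in the early and late 2-cell DMSO groups, and their summed level was 264.78 to 285.59 FPKM in early 2-cell DMSO libraries against 5.47 to 7.55 in early 2-cell A-485 libraries. Cumulus cell and fibroblast markers summed to at most 2.64 FPKM in any library. Sperm markers summed to 1.21 to 18.76 FPKM. Erythroid markers summed to 6.95 to 9.19 FPKM in the TSA libraries, with 2 of 3 above 1 FPKM, and to at most 3.48 elsewhere. In such pooled material, fewer cells of a type and less RNA per cell cannot be told apart.

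Levels are given as FPKM, the deposited number of fragments relative to effective transcript length and to all mapped fragments, which may be compared between genes. Differences are log2 fold changes from edgeR's quasi-likelihood test on the counts, each with its approximate standard error and Benjamini-Hochberg adjusted p over all genes tested. A gene was called at an adjusted p under 0.05, a change of at least 2-fold and a mean of at least 1 FPKM in either group. Shares of all genes called are over all genes tested, including genes under 1 FPKM that this rule cannot call. Nearly all members reach that level, so these shares are a low standard for them. For RNA, expressed genes are those tested with a mean of at least 1 FPKM over all libraries. The ratio of FPKM values can differ from the fold change on counts for 2 reasons. The effective length of a gene can differ between libraries with the mix of its isoforms. FPKM is also relative to all mapped fragments, while the fold change uses scaling factors estimated from the counts. Such gaps are seen below for Polr1a, Polr2a and Gtf2i, and also for Polr3d, Gtf2b and Med19 among others. The part of each reason was not tested.

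The machinery was transcribed or stored at every stage. The median member stood at 26.4 FPKM in zygote DMSO embryos, 16 in early 2-cell and 29 in late 2-cell DMSO embryos of the A-485 experiment, and 33.2 in those of the TSA experiment. With A-485 the medians were 25.3 FPKM in zygotes, 11 at the early 2-cell stage and 10.7 at the late 2-cell stage, and with TSA the median was 18.6. Between 88 and 96 of the 97 members had a mean of at least 1 FPKM, depending on the group. The member with the highest level was Gtf2b (TFIIB) in zygotes, at a mean of 234.7 FPKM with DMSO. It was Med27, a metazoan Mediator subunit, in early 2-cell DMSO embryos, at 305.6 FPKM. In late 2-cell DMSO embryos it was Taf1d, a subunit of SL1, at 510.4 and 443.4 FPKM in the A-485 and TSA experiments.

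**Figure D1:**
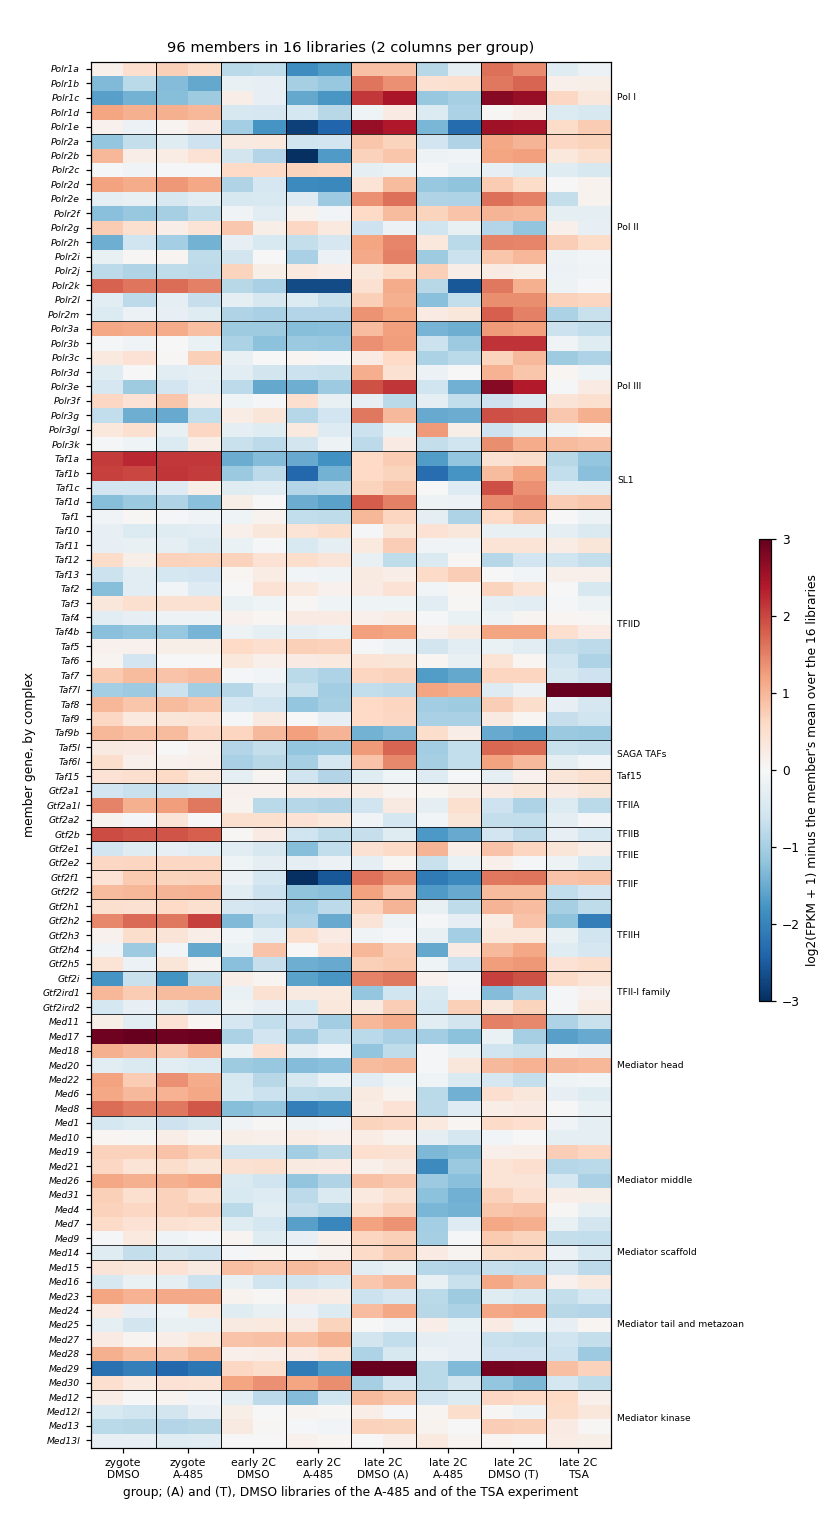
Level of 96 of the 97 members in each of the 16 RNA libraries, grouped by complex. Colour gives log2(FPKM + 1) minus the mean of that member over the 16 libraries, with the scale capped at 3 in either direction. The late 2-cell DMSO columns are above the mean for most Pol I, SL1 and Pol III genes, and the late 2-cell A-485 columns are below it for most of them.

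From the zygote to the early 2-cell stage in DMSO embryos, 27 members fell and 12 rose, against 14.9% of all genes called lower and 11.2% called higher. All genes called were 3002 lower and 2257 higher of 20106 tested, of which about 13550 were expressed. Set against expressed genes, the 12 risers are thus not shown to be an excess. The excess of members that fell is smaller than the share over all genes makes it appear. The median member was at -0.40 on the log2 scale and the median expressed gene at -0.03. With counts scaled to the mitochondrially encoded messenger RNAs, the split was 64 lower and 2 higher in place of 27 and 12, since that scaling moved the median of expressed genes from -0.03 to -1.36. The members that fell included 4 of 7 Mediator head, 3 of 9 middle, 3 of 5 TFIIH, 3 of 5 Pol I and 2 of 4 SL1 genes.

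The steepest losses were those of 2 SL1 and 2 Mediator head genes, while Taf1d of SL1 was called higher, by 1.49. Taf1b, an SL1 subunit that resembles TFIIB, was at 37.49 and 35.84 FPKM in the zygote libraries and at 3.29 and 4.35 in the early 2-cell libraries, a difference of -3.93 ± 0.17 (adjusted p = 7.1e-10). Taf1a of the same complex went from 210.71 and 234.22 to 16.66 and 19.14 FPKM, a difference of -3.56 ± 0.11 (adjusted p = 4.5e-11). Med17, a scaffold subunit of the Mediator head, went from 157.61 and 166.05 to 9.91 and 13.09 FPKM, a difference of -3.91 ± 0.11 (adjusted p = 2.6e-11). The libraries of the 2 stages did not overlap for these genes. Here and below, lack of overlap was part of the rule that named genes by size of change, so it adds no support. It held for 82 of the 97 members at this step, and for 57 of 97 between the 2 late 2-cell DMSO groups. The share over all genes was not computed, so these counts are not a result about the members. Med8, also of the head, fell by 3.19 on the log2 scale.

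Members that rose at the same step included Med29, Gtf2i, Polr3g and Polr1c. Med29, a metazoan Mediator subunit, was at 1.65 and 2.02 FPKM in zygotes and 18.27 and 17.05 FPKM in early 2-cell embryos, a difference of 3.35 ± 0.25 (adjusted p = 1.4e-07). Gtf2i encodes TFII-I, a DNA-binding factor that responds to signalling. It had 33 and 34 counts in the zygote libraries and 247 and 188 in the early 2-cell libraries, a difference of 3.24 ± 0.33 (adjusted p = 2.6e-06). Neither gene had overlapping libraries between the stages. Polr3g, a Pol III subunit, rose by 2.12 ± 0.26 and Polr1c, shared by Pol I and Pol III, by 1.90 ± 0.39. The rises called for Polr1b (1.22), Polr2a (1.05), Polr2f (1.03), Med13 (1.05) and Taf4b (1.16) were below 0 with mitochondrial scaling, at -0.11, -0.28, -0.31, -0.29 and -0.18. Leaving out 1 DMSO library ended the calls of Polr2a and Polr2f (zygote library 1, at 1.00 and 0.92) and of Med13 (early 2-cell library 1, at 0.93).

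From the early to the late 2-cell stage, the direction was mostly upward. In DMSO embryos 45 members rose and 7 fell, against 15.9% of all genes called higher and 8.92% called lower. The median member was at 0.83 and the median expressed gene at -0.01. Risers made up 4 of 5 Pol I, 4 of 4 SL1, 6 of 10 Pol III, 8 of 13 Pol II, 2 of 2 SAGA and 2 of 2 TFIIF genes, while TFIID contributed 2 of 16. In Mediator 5 of 9 middle, 3 of 7 head, 3 of 9 tail or metazoan and 1 of 4 kinase-module genes rose. So did 3 of 5 TFIIH, 1 of 2 TFIIE and 1 of 3 TFII-I family genes. Of the 7 members that fell, 5 were Mediator genes (Med15, Med18, Med27, Med28, Med30), and the other ones were Polr2g and Taf9b. Med27 lost its call without late 2-cell DMSO library 2 and Med28 without library 1, both at -0.96, and Med18 without early 2-cell DMSO library 2 or late 2-cell DMSO library 1, at -2.01 to -1.21 over all omissions.

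Polr1e, a peripheral Pol I subunit of its TFIIF-like module, was at 4.51 and 2.30 FPKM in early 2-cell and 68.17 and 58.09 FPKM in late 2-cell DMSO embryos, a difference of 4.02 ± 0.21 (adjusted p = 7.1e-08). Polr3e, a peripheral Pol III subunit, went from 1.46 and 0.46 to 15.14 and 17.97 FPKM, a difference of 4.11 ± 0.41 (adjusted p = 6.5e-06). Taf1c, the fourth SL1 subunit, had 12 and 4 counts in early 2-cell and 136 and 132 in late 2-cell libraries, a difference of 4.08 ± 0.58 (adjusted p = 1.2e-04). All of the late 2-cell libraries were above all of the early 2-cell libraries for these genes. Taf6l of SAGA rose by 3.00 ± 0.38. The largest subunits Polr1a and Polr3a rose by 2.72 ± 0.14 and 2.28 ± 0.14, whereas that of Pol II, Polr2a, was at 0.83 ± 0.12, under 2-fold. Taf9b, a histone-fold subunit of TFIID, was at 51.66 and 64.84 FPKM in early 2-cell and 11.69 and 12.77 FPKM in late 2-cell DMSO embryos, and fell by 2.27 ± 0.15 on the log2 scale (adjusted p = 2.6e-07).

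Over the whole interval from zygote to late 2-cell, 34 members rose and 17 fell in DMSO embryos, where 19.7% of all genes were called higher and 19.7% lower. This comparison shares its libraries with the preceding ones. Mitochondrial scaling turned this split into 10 higher and 44 lower, with the median of expressed genes at -1.33 in place of -0.02. Med29 rose the most, by 5.93 ± 0.18, from 1.65 and 2.02 to 105.95 and 111.73 FPKM. Gtf2i rose by 5.20 ± 0.23, Polr1c by 4.48 ± 0.25 and Polr3g by 3.60 ± 0.27. The largest falls were those of Med17 (-3.85 ± 0.17), Gtf2a1l (-2.64 ± 0.45), Med18 (-2.63 ± 0.35) and Gtf2b (-2.41 ± 0.12). Gtf2b went from 241.86 and 227.56 to 62.35 and 72.25 and then to 37.61 and 47.06 FPKM over the stages. Taf1a and Taf1b remained below their zygote levels at the late 2-cell stage, by 1.48 ± 0.11 and 1.37 ± 0.14 on the log2 scale, while Polr3a was at 0.06 ± 0.11 (adjusted p = 0.70).

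**Figure D2:**
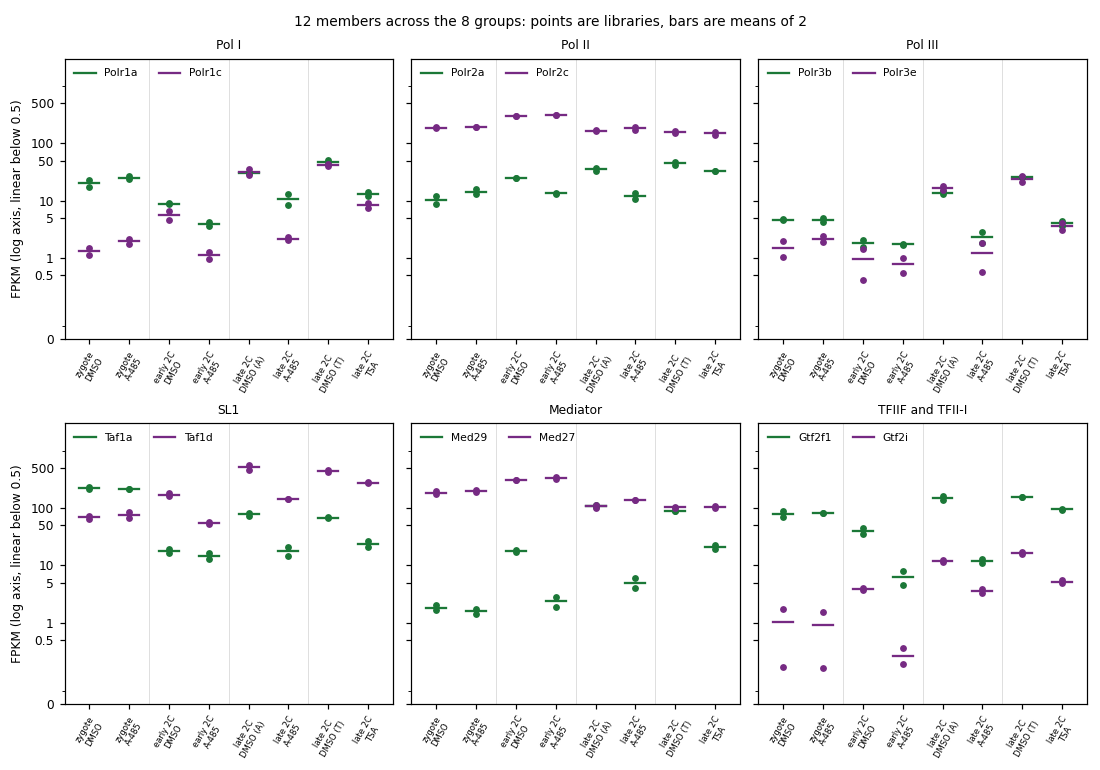
FPKM of 12 members in each RNA library, with the 8 groups on the horizontal axis and points for the 2 libraries of each group. Polr1c, Polr3e, Taf1d and Med29 are highest in the late 2-cell DMSO groups, Taf1a is highest in zygotes, and Polr2c and Med27 are highest at the early 2-cell stage.

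In zygotes, A-485 left no member called. No member passed in either direction by edgeR, where 0.0657% of all genes were called lower and 0.00548% higher, and DESeq2 also called 0. At an unadjusted p under 0.05 there were 5 of the 97 members and 1073 of the 18258 genes tested. The member with the lowest p was Polr1a, at 17.69 and 23.03 FPKM with DMSO and 26.61 and 23.71 with A-485, a difference of 0.44 ± 0.10 (adjusted p = 0.30). The median member and the median expressed gene were both at 0.00.

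At the early 2-cell stage, 12 members fell with A-485 and none rose by edgeR or DESeq2, against 7.90% of all genes called lower and 0.402% called higher. Those lower were 1649 of the 20872 genes tested, of which about 13570 were expressed. The members' share is thus not shown to exceed that among expressed genes. The adjusted p alone was passed by 18 of the 97 members and 2508 of the 20872 genes tested, and 31 members (32.0%) and 4873 genes (23.3%) were at an unadjusted p under 0.05. The median member was at -0.17 and the median expressed gene at -0.02. The 12 that fell were Polr1b, Polr1c and Polr1e of Pol I, Taf1d of SL1, Polr2b, Polr2d and Polr2k of Pol II, Polr3g of Pol III, Gtf2f1 of TFIIF, Gtf2i, and the Mediator genes Med7 and Med29. Summed over the 5 Pol I genes the level was 45.1 and 40.9 FPKM with DMSO and 28.2 and 24.9 with A-485. Summed over the 16 TFIID genes it was 746.0 and 773.3 with DMSO and 767.4 and 738.3 with A-485, and the TFIID median difference was 0.00. Taf7, a TFIID subunit that contacts Taf1, was at -0.81 ± 0.09 (adjusted p = 3.9e-05), under the fold limit.

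The genes that moved most were Gtf2i, Med29 and Gtf2f1. Gtf2i had 247 and 188 counts with DMSO and 22 and 13 with A-485 and fell by 3.69 ± 0.39 (adjusted p = 3.5e-05). Med29 was at 18.27 and 17.05 FPKM with DMSO and 1.90 and 2.84 with A-485 and fell by 2.88 ± 0.26 (adjusted p = 8.8e-06). Gtf2f1, the large subunit of TFIIF, was at 45.07 and 34.87 FPKM with DMSO and 4.47 and 7.93 with A-485 and fell by 2.67 ± 0.23 (adjusted p = 6.3e-06). In all of these the A-485 libraries lay below the DMSO libraries, and for Gtf2i and Med29 they were near the zygote libraries, whereas Gtf2f1 had 69.08 and 88.31 FPKM in zygotes. Gtf2f2, the other TFIIF subunit, was at -0.77 ± 0.17 (adjusted p = 0.0089), under 2-fold.

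The promoters of Med29 and Gtf2i are printed because both genes gained RNA from the zygote to the 2-cell stage and lost it with A-485. The windows run from 250 bases before to 50 after the RefSeq start, on the coding strand of GRCm38.p6, and capitals mark GC boxes (GGGCGG) and CCAAT boxes, the latter read on the opposite strand as ATTGG. Both genes lie on the minus strand, Med29 at chr7:28386146-28392708 and Gtf2i at chr5:134237834-134314760. The Med29 window is chr7:28392641-28392940 and holds 2 GC boxes and 3 CCAAT boxes, and the Gtf2i window is chr5:134314711-134315010 and holds 2 GC boxes.
Med29: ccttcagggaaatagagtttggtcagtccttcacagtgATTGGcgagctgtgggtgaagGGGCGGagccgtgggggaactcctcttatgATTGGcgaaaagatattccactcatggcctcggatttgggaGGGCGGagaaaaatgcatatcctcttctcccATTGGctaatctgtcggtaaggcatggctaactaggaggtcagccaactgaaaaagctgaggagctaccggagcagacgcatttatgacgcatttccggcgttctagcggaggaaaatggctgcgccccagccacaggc
Gtf2i: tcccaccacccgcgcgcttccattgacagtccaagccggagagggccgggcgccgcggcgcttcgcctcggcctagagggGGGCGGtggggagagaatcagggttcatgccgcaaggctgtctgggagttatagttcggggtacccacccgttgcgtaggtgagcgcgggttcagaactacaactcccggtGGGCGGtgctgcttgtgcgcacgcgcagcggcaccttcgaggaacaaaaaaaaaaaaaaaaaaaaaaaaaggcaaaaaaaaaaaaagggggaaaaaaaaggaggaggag

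Among the polymerase genes, Polr1c, the subunit shared by Pol I and Pol III, was at 6.61 and 4.60 FPKM with DMSO and 1.29 and 0.98 with A-485, and fell by 2.25 ± 0.44 (adjusted p = 0.0042). Polr3g fell by 2.20 ± 0.30 and Polr2b, the second-largest Pol II subunit, by 1.80 ± 0.21. Polr1b, the second-largest subunit of Pol I, fell by 1.37 ± 0.28 and Taf1d by 1.25 ± 0.09. The A-485 libraries of each were below its DMSO libraries. The calls of Polr2k (-2.36 ± 0.66) and Polr1e (-1.59 ± 0.39) rested on single libraries. Polr2k lost its call without any 1 of the 4 libraries, at -2.52 to -2.21, and Polr1e lost it without A-485 library 1 or DMSO library 1, at -1.91 to -1.26 over all 4 omissions. Polr1a stood at 8.73 and 9.03 FPKM with DMSO and 3.69 and 4.28 with A-485, but on counts its difference was -0.53 ± 0.18 (adjusted p = 0.098). Polr2a stood at 24.97 and 25.35 against 13.27 and 13.50 FPKM, and on counts at -0.54 ± 0.11 (adjusted p = 0.0052), under 2-fold.

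At the late 2-cell stage, 54 members fell with A-485 and 2 rose, against 16.8% of all genes called lower and 10.5% called higher. The median member was at -1.30 and the median expressed gene at -0.18, and 83 of the 97 members were below 0. Summed over all members the level was 4457.2 and 4489.0 FPKM with DMSO and 2716.6 and 2698.9 with A-485. All 12 members that had fallen at the early 2-cell stage were among the 54. That was 100% of the early and 22.2% of the late list, where over all genes tested in both comparisons the shares were 74.6% and 32.4%, and the comparisons share no library. Mitochondrial scaling moved the median of expressed genes to -1.16 and gave 82 members lower and 1 higher, and it turned the split of all genes from 3824 lower and 2406 higher into 6874 and 1177. Library totals gave a median of expressed genes of 0.01. Calls of 48 of the 54 held in every fit that left out 1 library. Med23 (then -0.98) was lost without A-485 library 1, Gtf2h4 (-3.87 to -1.58 over all omissions) without library 1 of either group, Med8 (-1.25 to -0.91) and Taf11 (-1.16 to -0.80) without A-485 library 1 or DMSO library 2, Med9 (-2.61 to -1.10) without either DMSO library, and Polr1d as given below.

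Several measures moved with this comparison, and their part in the result was not tested. The A-485 libraries had 13206163 and 14922961 counts against 23067712 and 19215326 with DMSO, and 5.43% and 5.35% of their counts were mitochondrially encoded messenger RNA against 2.45% and 2.35%. The 4 oocyte markers summed to 928.08 to 942.64 FPKM with A-485 and to 551.79 to 584.52 with DMSO, and the 4 markers of the 2-cell stage to 30.91 to 35.93 and 93.94 to 97.26. The 4 cumulus cell markers summed to 1.62 to 1.63 FPKM with A-485 and to 0.20 to 0.99 with DMSO, with 1 of 4 above 1 FPKM.

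Losses by complex covered 5 of 5 Pol I, 4 of 4 SL1, 7 of 10 Pol III and 9 of 13 Pol II genes. They covered 2 of 2 TFIIF, 2 of 2 SAGA, 1 of 1 TFIIB, 2 of 5 TFIIH and 1 of 3 TFII-I family genes, and 6 of 16 TFIID genes, of which 2 more rose. In Mediator they covered 7 of 9 middle, 3 of 7 head, 4 of 9 tail or metazoan and 1 of 4 kinase-module genes. The median difference was -2.23 in Pol I, -3.03 in SL1, -2.41 in Pol III, -1.86 in Pol II, -1.77 in the Mediator middle and -0.56 in TFIID. The 3 TFIIA genes were not called, with Gtf2a1 at 0.01 ± 0.09 (adjusted p = 0.94), Gtf2a2 at 0.35 ± 0.23 (adjusted p = 0.25) and Gtf2a1l at 0.94 ± 0.72 (adjusted p = 0.33).

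Of the Pol I genes, Polr1e was at 68.17 and 58.09 FPKM with DMSO and 3.34 and 1.28 with A-485, and fell by 4.77 ± 0.22 on the log2 scale (adjusted p = 1.7e-08), a level 27.3-fold lower. Polr1c was at 28.13 and 35.28 against 2.04 and 2.33 FPKM and fell by 4.74 ± 0.37 (adjusted p = 8.8e-07). Polr1a was at 30.38 and 30.24 against 8.54 and 12.87 FPKM and fell by 2.23 ± 0.15 (adjusted p = 2.9e-07). No A-485 library reached a DMSO library in any of these. Polr1b fell by 1.84 ± 0.23. Polr1d, shared with Pol III and the Pol I gene with the highest mean level, fell by 1.09 ± 0.25, and lost its call without A-485 library 2 or DMSO library 2, at -1.33 to -0.86 over all omissions.

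In SL1, Taf1d was at 561.28 and 459.43 FPKM with DMSO and 143.03 and 140.91 with A-485, and fell by 1.81 ± 0.12 (adjusted p = 2.7e-07). Taf1b fell by 3.67 ± 0.41 and Taf1a by 2.39 ± 0.21, with no overlap between groups. Taf1c had 136 and 132 counts with DMSO and 4 and 3 with A-485. Relative to the library totals these summed counts were 25.5-fold lower with A-485, with an exact interval of 12.2 to 64.0 that covers counting error only, and the edgeR difference was -4.82 ± 0.65 (adjusted p = 1.0e-04).

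In Pol III, the largest subunits Polr3a and Polr3b fell by 3.16 ± 0.17 and 2.90 ± 0.23. Polr3a was at 27.66 and 34.20 FPKM with DMSO and 4.68 and 4.42 with A-485, near its early 2-cell DMSO values of 6.19 and 6.13. Polr3e was at 15.14 and 17.97 against 1.84 and 0.58 FPKM and fell by 4.39 ± 0.27 (adjusted p = 1.1e-07). These genes had no overlap between treated and control libraries. Polr3d, the Pol III gene with the highest mean level, fell by 1.93 ± 0.23, from 45.73 and 29.06 to 18.26 and 20.54 FPKM. The 3 Pol III genes that were not called were Polr3f (-0.54 ± 0.22), Polr3k (-0.23 ± 0.23) and Polr3gl (1.35 ± 0.63, adjusted p = 0.11).

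In Pol II, Polr2a was at 37.46 and 33.60 FPKM with DMSO and 13.52 and 10.65 with A-485, and fell by 2.13 ± 0.15 (adjusted p = 3.9e-07). Polr2b was at 53.10 and 58.16 against 28.96 and 29.99 FPKM and fell by 1.41 ± 0.13 (adjusted p = 3.6e-06). Polr2c, an assembly subunit and the Pol II gene with the highest mean level, was at 161.78 and 173.22 against 194.67 and 174.47 FPKM, a difference of -0.06 ± 0.11 (adjusted p = 0.71). The groups were apart for Polr2a and Polr2b, and for Polr2c the A-485 libraries lay just above the DMSO libraries in FPKM. Polr2c, Polr2f, Polr2g and Polr2j were the 4 Pol II genes not called, at -0.62 to 0.15.

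**Figure D3:**
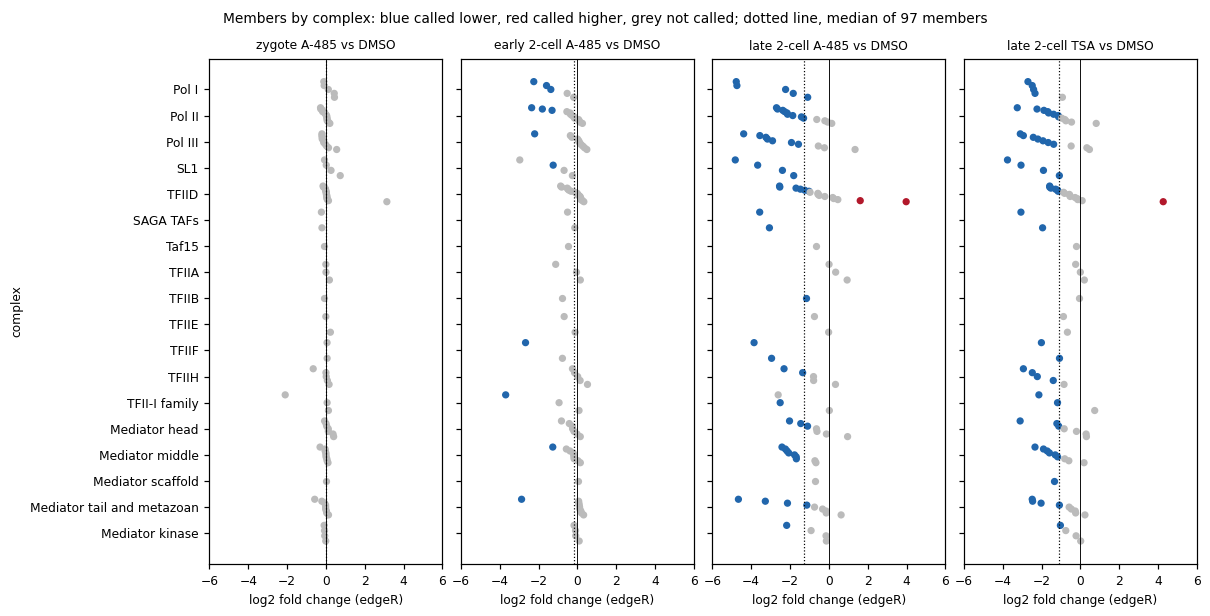
Log2 fold change from edgeR for each member, by complex, in the 4 comparisons of a drug with DMSO (A-485 in zygotes and at the early and late 2-cell stages, TSA at the late 2-cell stage). Blue points are members called lower, red points members called higher and grey points members not called, and the dotted line marks the median of the 97 members, which is 0.00, -0.17, -1.30 and -1.12 in the 4 comparisons.

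Gtf2f1 was the general factor with the deepest loss. Its level was 159.43 and 136.16 FPKM with DMSO and 10.92 and 12.69 with A-485, a difference of -3.85 ± 0.17 (adjusted p = 1.2e-08). Gtf2f2 fell by 2.95 ± 0.20, from 89.63 and 70.93 to 11.10 and 12.92 FPKM. Gtf2b fell by 1.15 ± 0.19, from 37.61 and 47.06 to 17.73 and 20.86 FPKM, and Gtf2i by 2.51 ± 0.25. Treated and control libraries did not overlap in any of these. Gtf2h1, the TFIIH gene with the highest mean level, fell by 1.35 ± 0.18, while Gtf2h2, another core TFIIH subunit, was at 0.34 ± 0.31 (adjusted p = 0.41). Gtf2e2 of TFIIE was at -0.74 ± 0.23 and Gtf2ird1 of the TFII-I family at 0.02 ± 0.26.

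In Mediator, Med29 was at 105.95 and 111.73 FPKM with DMSO and 6.06 and 3.95 with A-485, and fell by 4.66 ± 0.22 (adjusted p = 2.1e-08), a level 25.3-fold lower. Med16, a tail subunit, fell by 3.27 ± 0.49, and Med19, a middle subunit, by 2.15 ± 0.22, from 23.24 and 22.31 to 5.72 and 6.06 FPKM. None of these had overlapping groups. Med17, which had already lost most of its RNA by the early 2-cell stage, was at 10.98 and 9.74 against 9.29 and 7.93 FPKM, a difference of -0.13 ± 0.25 (adjusted p = 0.73). Med27 was at -0.14 ± 0.15 and the scaffold gene Med14 at -0.69 ± 0.12 (adjusted p = 0.00059), under 2-fold. Med10, the middle gene with the highest mean level, was at -0.72 ± 0.16.

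The only members called higher with A-485 were Taf9b and Taf7l, both of TFIID. Taf9b was at 11.69 and 12.77 FPKM with DMSO and 47.90 and 37.46 with A-485, a difference of 1.62 ± 0.18 (adjusted p = 1.5e-05) or 3.07-fold. The A-485 libraries lay between those of the early and late 2-cell DMSO groups, the former being at 51.66 and 64.84. Taf7l, a germ-cell paralogue of Taf7, was at 0.27 and 0.22 FPKM with DMSO and 3.81 and 3.47 with A-485, a difference of 3.98 ± 0.72 (adjusted p = 0.00096). Its counts were 7 and 4 against 59 and 76. The groups did not overlap for either gene, and with mitochondrial scaling Taf7l kept its call at 3.03 and Taf9b did not, at 0.64.

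The promoter windows of these genes are shown because they were the exceptions in direction. Taf9b lies at chrX:106206883-106221158 and Taf7l at chrX:134460118-134476490, both on the minus strand. The Taf9b window, chrX:106221109-106221408, holds 5 GC boxes in capitals. The Taf7l window, chrX:134476441-134476740, holds the letters TATAAA once on each strand in an overlapping stretch, shown in capitals.
Taf9b: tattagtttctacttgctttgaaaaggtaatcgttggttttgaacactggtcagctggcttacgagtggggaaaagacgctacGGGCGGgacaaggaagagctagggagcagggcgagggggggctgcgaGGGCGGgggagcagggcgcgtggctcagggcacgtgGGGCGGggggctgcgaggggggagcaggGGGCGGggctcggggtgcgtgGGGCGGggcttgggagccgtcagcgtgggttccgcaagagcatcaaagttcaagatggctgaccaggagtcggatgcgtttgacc
Taf7l: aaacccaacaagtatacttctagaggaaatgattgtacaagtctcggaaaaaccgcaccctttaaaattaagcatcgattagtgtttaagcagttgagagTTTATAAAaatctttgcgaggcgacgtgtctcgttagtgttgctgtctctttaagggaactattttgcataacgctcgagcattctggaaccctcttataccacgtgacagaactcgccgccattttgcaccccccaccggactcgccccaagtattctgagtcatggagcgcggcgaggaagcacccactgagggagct

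With TSA at the late 2-cell stage, 54 members fell and 1 rose, against 13.9% of all genes called lower and 13.8% called higher. The median member was at -1.12 and the median expressed gene at -0.13, and 84 of the 97 members were below 0. Summed over the members the level was 4479.8 and 4419.7 FPKM with DMSO and 3100.8 and 3026.9 with TSA. With library totals in place of TMM factors the members split 40 lower and 3 higher, and all genes 2384 lower and 4108 higher in place of 3247 and 3237, since the median of expressed genes then stood at 0.22. The TSA libraries had 18722215 and 19517993 counts against 26531532 and 24694571 with DMSO, and mitochondrially encoded messenger RNA made up 3.66% and 3.72% against 2.71% and 2.39%. The 4 oocyte markers summed to 493.77 to 518.72 FPKM with TSA and 400.66 to 420.73 with DMSO, the 4 markers of the 2-cell stage to 197.27 to 212.37 and 63.12 to 75.95, and the 3 erythroid markers to 6.95 to 9.19 and 0.07 to 0.21. The part of these measures in the result was not tested.

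Losses with TSA covered 4 of 5 Pol I, 4 of 4 SL1, 7 of 10 Pol III, 8 of 13 Pol II, 2 of 2 SAGA, 2 of 2 TFIIF and 4 of 5 TFIIH genes. In TFIID 6 of 16 fell and 1 rose. In Mediator 6 of 9 middle, 3 of 7 head, 4 of 9 tail or metazoan, 1 of 4 kinase-module genes and the scaffold gene fell. TFIIA, TFIIB and TFIIE had no gene called, with Gtf2b at 40.50 and 35.15 FPKM with DMSO and 51.31 and 42.03 with TSA, a difference of -0.05 ± 0.13 (adjusted p = 0.81).

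Taf1c had 395 and 289 counts with DMSO and 28 and 20 with TSA, and fell by 3.75 ± 0.31 (adjusted p = 3.1e-06). Polr2m, which encodes a protein associated with Pol II, went from 19.26 and 15.71 to 2.04 and 2.66 FPKM and fell by 3.25 ± 0.20 (adjusted p = 3.6e-07). Med11, of the Mediator head, went from 13.42 and 12.75 to 1.65 and 2.17 FPKM and fell by 3.10 ± 0.31 (adjusted p = 1.3e-05). No TSA library reached a DMSO library in these genes. Polr3e fell by 3.09 ± 0.20, an 8.53-fold lower level, and Polr3a and Polr3b by 2.42 ± 0.09 and 2.94 ± 0.13. Polr1a and Polr1b fell by 2.48 ± 0.11 and 2.33 ± 0.14. Of the catalytic pair of Pol II, Polr2b fell by 1.14 ± 0.08 and Polr2a was at -0.80 ± 0.08 (adjusted p = 1.5e-05), under 2-fold.

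Taf7l was the member that rose with TSA. Its level was 0.63 and 0.88 FPKM with DMSO and 20.78 and 19.04 with TSA, and its counts were 24 and 37 against 565 and 568. The difference was 4.27 ± 0.27 (adjusted p = 3.9e-07), or 19.3-fold, with all TSA libraries above all others in the series. The calls of Med17 (-1.21 ± 0.23) and Med13 (-1.03 ± 0.05) were lost without 1 library. Med17 lost its call without DMSO library 1 or TSA library 2, at -1.48 to -0.87 over all omissions, and Med13 without TSA library 2, at -0.99. Med23 was also lost without TSA library 2, at -0.85, and Gtf2ird2 without DMSO library 2 or either TSA library, at -1.38 to -0.94 over all omissions.

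Of the 54 members that fell with A-485 and the 54 that fell with TSA, 45 were the same genes, which is 83.3% of each list. Over all genes tested in both comparisons the shared genes were 62.8% of the A-485 list and 74.2% of the TSA list. The 9 members lower with A-485 alone were Gtf2b, Med8, Med12, Med19, Med31, Polr1d, Polr2a, Polr2d and Taf11, and the 9 lower with TSA alone were Gtf2h2, Gtf2h5, Gtf2ird2, Med1, Med13, Med14, Med17, Polr2f and Taf6. Such a split of calls does not by itself show a different effect, so the difference between the effects was tested with an interaction term. This test sets embryos washed free of A-485 against embryos whose TSA exposure ended later. The part of that difference in the result was not tested.

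That test found 25 members with a lower and 8 with a higher value under A-485 than under TSA, each relative to its own DMSO group, against 12.7% and 4.59% of all genes. All genes that passed were 3380 lower and 1218 higher of 26554 tested, of which about 14020 were expressed. Set against expressed genes, neither count of members is thus shown to be an excess. With mitochondrial scaling the members split 58 and 3. Gtf2f1 differed the most downward, by -2.89 ± 0.18 (adjusted p = 2.5e-09): its level was 92.21 and 96.43 FPKM with TSA, against 154.42 and 156.22 in the corresponding DMSO libraries, and 10.92 and 12.69 with A-485. The differences were -2.47 ± 0.22 for Polr1e, -2.46 ± 0.23 for Med19 and -2.31 ± 0.23 for Med29. Med19 was at 18.05 and 18.58 FPKM with DMSO and 27.50 and 25.74 with TSA, a difference of 0.19 ± 0.11 on counts (adjusted p = 0.21). Among the genes on the other side, Gtf2h2 differed by 3.16 ± 0.42, Polr2m by 1.84 ± 0.31, Taf9b by 1.41 ± 0.22 and Polr2f by 0.95 ± 0.24. Gtf2h2 was at 14.89 and 23.49 FPKM with DMSO and 4.95 and 2.25 with TSA and fell there by 2.93 ± 0.26. Polr2f lost this call without DMSO library 1 of the TSA experiment (adjusted p = 0.054), with 0.83 to 1.10 over all omissions. Of the other catalytic genes, Polr2a differed by -1.44 ± 0.17 (adjusted p = 7.4e-06) and Polr3a by -0.85 ± 0.18 (adjusted p = 0.0021), while Polr1a (0.14 ± 0.18) and Polr3b (-0.08 ± 0.25) did not pass.

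The DMSO groups of the 2 late 2-cell experiments were compared as well. By edgeR 1 member was lower in the A-485 experiment and 0 were higher, against 1.19% and 0.136% of all genes, and 22 members (22.7%) were at an unadjusted p under 0.05, against 2777 of the 20647 genes tested (13.4%). DESeq2 also gave 1 and 0. The called member was Taf1c, with 136 and 132 against 395 and 289 counts, at -1.06, and it lost the call without any 1 of 3 of the 4 libraries, at -1.21 to -0.89.

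The effect of A-485 was also compared between the early and late 2-cell stages. The late embryos had been without the drug for a time, so time since washing changed together with stage. The part of each was not tested. The interaction found 47 members with a lower and 4 with a higher difference at the late stage, against 9.90% and 10.1% of all genes, and the median member was at -0.77 where the median expressed gene was at 0.05. Polr3e differed by -4.04 ± 0.57, Med16 by -3.36 ± 0.76 and Taf6l by -3.35 ± 0.75. At the early stage these genes had low levels in both groups, as for Polr3e with 1.46 and 0.46 FPKM with DMSO and 0.55 and 1.02 with A-485. Values on the other side were Taf7l at 4.60 ± 1.4, Taf9b at 1.36 ± 0.20, Gtf2i at 1.27 ± 0.44 and Med28 at 0.50 ± 0.17. Taf9b kept this call whichever library was left out. Taf7l lost it in 4 such fits (3.65 to 7.30 over all), Gtf2i in 5 (0.83 to 1.73) and Med28 in all 8 (0.23 to 0.52), and with mitochondrial scaling Med28 was at -0.56.

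The genes lower with a drug were compared with those that rose in DMSO embryos, using comparisons without shared libraries. Of the 45 members that rose from early to late 2-cell, 39 fell with TSA, which is 86.7% of the risers and 72.2% of the TSA list. Over all genes both shares were 67.6%. Of the 45 members not called between these stages, 15 fell with TSA (33.3%, against 7.11% of all such genes). All such genes include those under the FPKM limit, which the rule cannot call, while nearly all members reach it. The share among expressed genes was not computed, so an excess of these members over expressed genes is not shown. With the DMSO libraries of the TSA experiment as the late stage, 49 members rose, and 43 of them fell with A-485, which is 87.8% of the risers and 79.6% of the A-485 list, where over all genes the shares were 67.2% and 70.0%.

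For paralogue pairs, the share of each gene in the summed FPKM of its pair is given as a description. Taf9b made up 69.9% and 73.5% of the summed FPKM of Taf9 and Taf9b in zygote DMSO libraries, 74.5% and 74.6% at the early 2-cell and 29.6% and 31.1% at the late 2-cell stage. It made up 84.7% and 81.2% in late 2-cell A-485 libraries, and 57.6% and 55.1% with TSA against 33.1% and 34.9% in the DMSO libraries of that experiment. Both genes contributed, since Taf9 fell with A-485 and TSA by 1.69 ± 0.31 and 1.28 ± 0.21, whereas Taf9b rose with A-485 and was at 0.09 ± 0.13 with TSA (adjusted p = 0.62). Taf9 shares its locus with Ak6, which covers 73.8% of its exon bases on the same strand, so that part of its count is uncertain.

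Taf7l held 0.25% and 0.19% of the FPKM of its pair with Taf7 in late 2-cell DMSO libraries of the A-485 experiment and 15.4% and 12.9% with A-485. In the TSA experiment it held 0.58% and 0.80% with DMSO and 29.8% and 30.0% with TSA. Taf7 itself fell by 2.53 ± 0.12 with A-485, from 109.49 and 113.02 to 20.88 and 23.40 FPKM, and by 1.58 ± 0.07 with TSA. Taf4b, a gonadal paralogue of Taf4, rose from 10.4% and 10.5% of its pair in zygotes to 33.9% and 32.3% in late 2-cell DMSO libraries, and stood at 20.9% and 24.8% with A-485. Taf4b rose from early to late 2-cell by 1.48 ± 0.12 and fell by 1.24 ± 0.12 with A-485 and 1.17 ± 0.09 with TSA, while Taf4 was at -0.50 ± 0.11 and -0.27 ± 0.07, under 2-fold. Polr3gl held 63.0% and 79.4% of the Polr3g and Polr3gl pair in zygotes, 11% and 22.2% in late 2-cell DMSO libraries and 88.2% and 75.9% with A-485. With A-485 Polr3g fell by 3.56 ± 0.29, from 22.68 and 14.68 to 1.79 and 1.82 FPKM.

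The SAGA genes Taf5l and Taf6l have TFIID paralogues, Taf5 and Taf6, and differences within these pairs were not tested. Taf5l went from 14.26 and 20.14 to 2.10 and 2.81 FPKM with A-485, a fall of 3.06 ± 0.25, and fell by 3.06 ± 0.14 with TSA, while Taf5 was at -0.55 ± 0.15 and -0.86 ± 0.09. Taf6l fell by 3.56 ± 0.47 and 1.95 ± 0.27, and Taf6 was at -0.97 ± 0.21 with A-485 and fell by 1.52 ± 0.17 with TSA. In the kinase module, Med12 fell by 2.17 ± 0.23 with A-485 and was at -0.75 ± 0.13 with TSA, and Med12l was at -0.13 ± 0.18 and 0.02 ± 0.13. Med13 was at -0.92 ± 0.09 with A-485, and Med13l at -0.15 ± 0.11 and, with TSA, -0.22 ± 0.07. Gtf2a1l, the germ-cell paralogue of Gtf2a1, was at 7.28 and 5.16 FPKM in zygotes and between 0.55 and 2.57 in the late 2-cell DMSO libraries, and Gtf2a1 was at 150.12 to 310.13 FPKM in all 16.

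**Figure D4:**
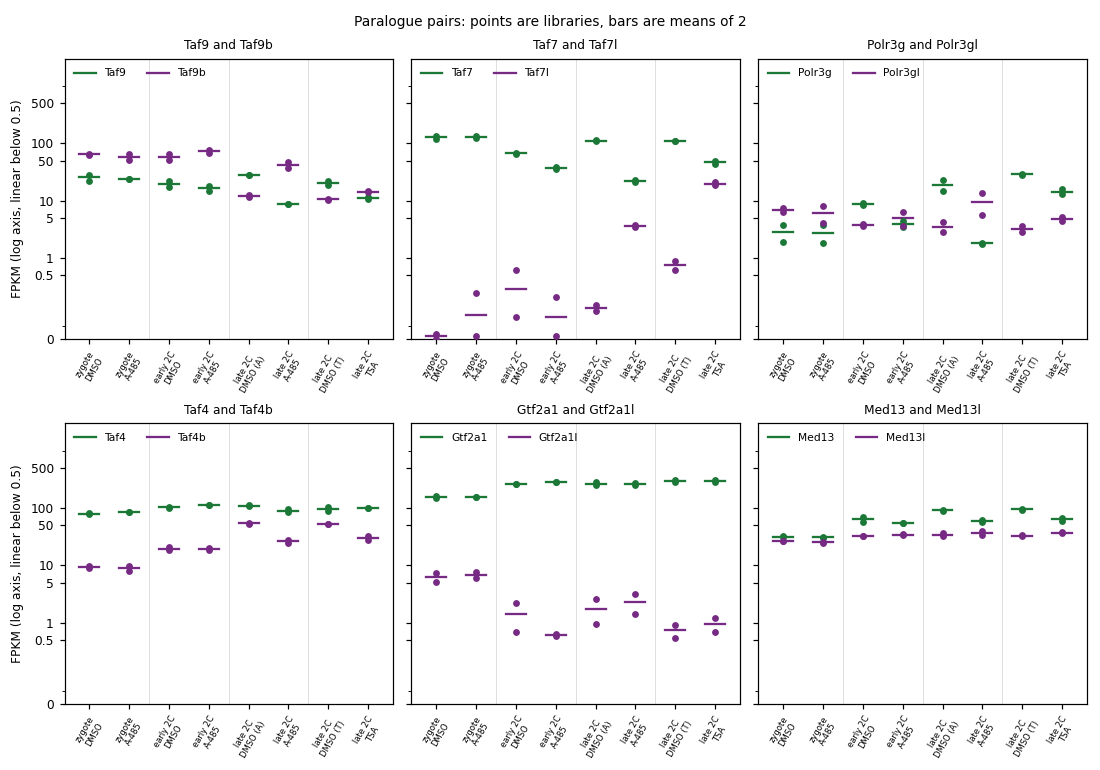
FPKM of both genes of 6 paralogue pairs in each RNA library, by group, on a log axis that is linear below 0.5 FPKM. Taf9b lies above Taf9 in zygotes, at the early 2-cell stage and in the late 2-cell A-485 and TSA libraries and below it in the late 2-cell DMSO libraries, and Taf7l is above 1 FPKM in the late 2-cell A-485 and TSA libraries only.

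Genes that belong to or work with these complexes but do not carry their prefixes were read from a list of 35. Some are subunits of Pol I, Pol III, TFIIH or the Mediator kinase module. The counts by complex given above are therefore not counts of whole complexes. With A-485 at the late 2-cell stage, 5 of 5 Pol I partners and 11 of 11 Pol III partners fell, with median differences of -3.88 and -2.30, against 16.8% of all genes called lower. So did 4 of 5 Pol II assembly genes, 3 of 5 TFIIH partners, 2 of 3 kinase-module partners, 1 of 3 genes of the TBP family and 1 of 3 mitochondrial transcription genes, of which another rose. With TSA the counts of genes that fell were, in that order, 5 of 5, 10 of 11, 4 of 5, 3 of 5, 2 of 3, 1 of 3 and 2 of 3, against 13.9% of all genes. At the early 2-cell stage with A-485, 2 of 5 Pol I partners, 3 of 11 Pol III partners, 1 of 5 Pol II assembly genes and 1 of 3 mitochondrial genes fell, against 7.90% of all genes.

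Ubtf, the upstream binding factor of ribosomal DNA, was at 170.41 and 143.88 FPKM with DMSO and 6.08 and 8.79 with A-485 in late 2-cell embryos, and fell by 4.44 ± 0.14 (adjusted p = 4.0e-09). It fell by 2.69 ± 0.17 at the early 2-cell stage and by 2.96 ± 0.08 with TSA. Gtf3c5, a subunit of the Pol III factor TFIIIC, fell by 4.23 ± 0.20 with A-485 at the late 2-cell stage, fell by 2.83 ± 0.31 at the early 2-cell stage and fell by 4.15 ± 0.12 with TSA. Treated and control libraries were apart in Ubtf. Tbp, the TATA-binding protein shared by all of these polymerases, was at 69.17 and 73.81 against 15.51 and 11.80 FPKM with A-485, a fall of 2.29 ± 0.18 (adjusted p = 8.3e-07), and at 75.89 and 67.42 against 22.19 and 22.83 FPKM with TSA, a fall of 2.00 ± 0.12. Its relatives Tbpl1 and Tbpl2, the latter an oocyte form, were at -0.50 ± 0.25 and 1.16 ± 0.67 with A-485 and did not pass. Of the kinases and cyclins, Ccnc fell by 2.55 ± 0.33 and Cdk19 by 1.15 ± 0.24 with A-485, and Cdk8 was at 0.31 ± 0.11. Polrmt, the mitochondrial RNA polymerase, went from 23.42 and 28.51 to 0.83 and 0.63 FPKM with A-485, whereas Tfam, a mitochondrial transcription factor, went from 4.16 and 0.84 to 12.68 and 24.56 FPKM, a rise of 2.88 ± 0.28.

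A total of 32 members were called in no comparison of a drug with DMSO, and 65 were called in at least 1. The corresponding shares over all genes were not computed. The uncalled ones with high levels included Taf3, a TFIID subunit that reads a histone mark of active promoters, at 89.95 to 158.19 FPKM over all 16 libraries, Taf4 at 77.70 to 115.07 and Polr2c at 142.76 to 315.20. Taf3 was within 0.21 of 0 on the log2 scale in every drug comparison. The lowest adjusted p by edgeR over these comparisons was 0.00088 for Polr2c, 0.0044 for Taf4 and 0.064 for Taf3, with changes under 2-fold. Some uncalled members thus passed the adjusted p but not the fold limit. Taf15 was at 13.78 to 39.83 FPKM and Gtf2e2 at 13.29 to 34.20. A call that was not made does not show that a level was the same.

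Open chromatin at the promoters was read from peaks of ATAC-seq, an assay of DNA accessible to a transposase, at the late 1-cell and the early 2-cell stage, with A-485 or DMSO. The lists hold 10214 and 7094 peaks at the late 1-cell stage with DMSO and A-485, with median widths of 478.0 and 592.0 bases, and 27693 and 13712 at the early 2-cell stage, with median widths of 486.0 and 625.0. Each list pools both replicates of its group, so a difference between lists has no replicate check, and the intervals given cover counting error only. A promoter was counted as open with a peak within 1 kb of an annotated start.

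At the late 1-cell stage 54 of 97 members (55.7%, 95% Wilson interval 45.8 to 65.2) had such a peak with DMSO, where 26.2% of all protein-coding genes and 42.8% of those with a mean of at least 1 FPKM had one. With A-485 the count was again 54, where 24.7% of all and 41.5% of expressed genes had one. These were not all the same promoters: of the 54 with a peak with DMSO, 46 also had one with A-485 (85.2%, against 78.9% of expressed genes). At the early 2-cell stage 74 members (76.3%, 66.9 to 83.7) had one with DMSO, against 31.8% and 53.3%, and 78 (80.4%, 71.4 to 87.1) with A-485, against 41.0% and 65.0%. Of the 74 promoters open with DMSO at the early 2-cell stage, 65 were also in the A-485 list (87.8%, against 84.6% of expressed genes). Of the 26 that were open at the early 2-cell but not the late 1-cell stage with DMSO, 18 were in the A-485 list (69.2%, against 65.9%). A peak stood at 43 promoters in all 4 lists (44.3%, against 28.1% of expressed genes). The 8 members with a peak in no list were Gtf2h2, Med13l, Med18, Med25, Polr1c, Polr3gl, Taf1c and Taf9b.

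Of the 12 members whose RNA fell with A-485 at the early 2-cell stage, 10 had a peak there with DMSO and 9 with A-485. Of those 10, 8 were in both lists, those of Gtf2i and Polr3g were not in the A-485 list, and Polr2k had a peak in the A-485 list alone. Of the 85 members not called at that stage, 64 had a peak with DMSO and 69 with A-485, 57 of them in both. Of the 54 members that fell at the late 2-cell stage, 47 had an early 2-cell peak with DMSO and 46 with A-485, 42 of them in both, against 27, 31 and 23 of the 41 not called. The difference between these sets was not tested. The strongest peak at the Med29 promoter had a fold enrichment of 8.30 with DMSO and 9.02 with A-485 at the late 1-cell stage, and 7.65 and 10.42 at the early 2-cell stage. That of Gtf2f1 had 7.02, 6.60, 6.50 and 6.44 in the same order. A peak near Gtf2i was listed at the early 2-cell stage with DMSO (5.20) but not with A-485. Taf7l had a peak at the late 1-cell stage with DMSO (6.56) and at the early 2-cell stage with A-485 (9.57).

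**Figure D5:**
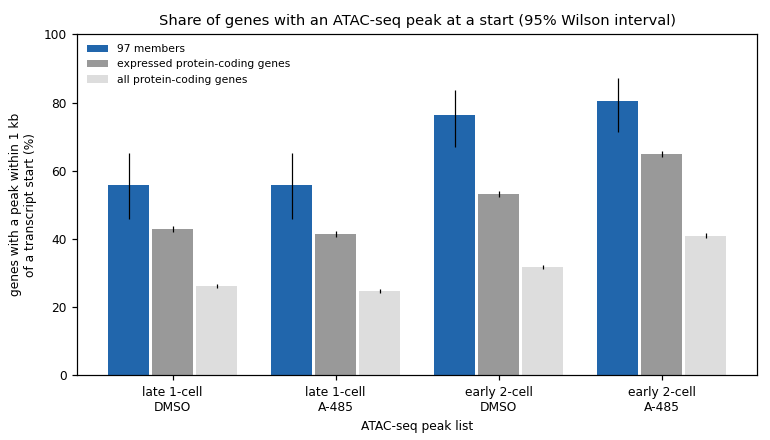
Percent of promoters with an ATAC-seq peak within 1 kb of a start in the 4 peak lists, for the 97 members, for expressed protein-coding genes and for all protein-coding genes. Bars start at 0 and error bars are 95% Wilson intervals for counting error. The members are at 55.7, 55.7, 76.3 and 80.4%, above both other sets in each list.

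Promoter windows of RefSeq starts in GRCm38.p6 were matched for 83 of the 97 members and for 16512 protein-coding genes in all. On either strand, the letters of an ETS motif, CCGGAAG, stood in 33.7% of the members' windows, against 12.3% of all windows and 19.2% of those of expressed genes. The GC box GGGCGG stood in 65.1% of members, 48.2% of all and 64.9% of expressed genes. The CCAAT box stood in 32.5%, 38.8% and 40.8%, TATAAA in 12%, 12.9% and 6.91%, and the cyclic AMP response element TGACGTCA in 2.41%, 2.42% and 3.35%. The median GC content was 59.3% in the members and 57.0% in all windows. A match is a run of letters and was not tested as a binding site.

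Some counts are uncertain because of overlapping genes. Exons of 38 members overlap those of another gene, 6 of them on the same strand and 34 on the opposite strand, and whether the counting used the strand is not given in the sources used here. An overlap with a single other gene of at least 10% of the exon bases was found on the same strand in 1 member, Taf9, and on the opposite strand in 13. The latter included Med10 (92.8%), Taf10 (45.9%), Polr2i (26.8%), Polr2c (18.1%), Taf1c (16.7%) and Med19 (11.9%). Overlaps with several genes were not added up. Taf1d holds several small nucleolar RNA genes in its exons on the same strand, each covering at most 1.53% of its exon bases, so part of its count is also uncertain.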

How the data were processed

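Total RNA libraries were prepared with a stranded SMART-Seq kit. The authors trimmed reads with Trimmomatic 0.39, mapped them with STAR 2.7.8a to GRCm38 and quantified genes with RSEM 1.3.1, and they ran DESeq2 1.32.0. The deposited expected counts are not normalized, and the deposited FPKM values were scaled by the authors' RSEM run to effective length and mapped fragments. The deposited files also give RSEM's posterior SD of each count. For ATAC-seq, the authors ran the ENCODE pipeline and deposited 1 peak list for each stage and treatment from both libraries together, with a score, a fold enrichment and -log10 p- and q-values per peak, of which the position and the fold enrichment were used here. Labels name GRCm38 and mm10. The H3K27ac profiles were not analysed here.

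Groups were read from each library's title. Symbols came from GENCODE M21, with 55144 of 55385 identifiers matched without their version. Expected counts were rounded, genes under 10 counts in all libraries of a fit were dropped, and groups were compared with TMM factors and edgeR 4.0.16 (R 4.3.3), without a replicate term, on the libraries of the comparison. Interactions between drug effects were called at adjusted p alone. The standard error is the absolute log2 fold change divided by the square root of F. The fit was tested on simulated counts. Replicates differed beyond sampling noise (chi-square per degree of freedom 9.44 to 19.6), so each was kept as a library. Promoter and peak steps used Python 3.11.15, pandas 2.3.3 and scipy 1.17.1, and figures matplotlib 3.10.9. Alternatives were DESeq2 1.42.0, library totals, mitochondrial scaling, other filters, all 16 libraries in one fit, a replicate block, other peak windows and leaving out each library.

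The members and gene lists were chosen with earlier results of these data known. The genes named are up to 4 called members per direction and comparison with the largest change and no overlap in FPKM, the member of each complex with the highest mean FPKM, catalytic subunits, paralogue pairs, the TBP family and called partners. Others, named to complete a count, to give a limit or as examples, were chosen after their values were seen. The values of 1 member, which is in all counts, are not reported here.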

Additional observations from a re-analysis of the deposited data

Results flagged for a closer look

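The difference between the effects of A-485 at the late and early 2-cell stages, tested with an interaction term, picked out 47 members with a lower value at the late stage and 4 with a higher one. Of all genes tested, 9.90% were lower and 10.1% higher. The lowest were Polr3e (-4.04), Med16 (-3.36) and Taf6l (-3.35) on the log2 scale, and the 4 higher ones were Taf7l (4.60), Taf9b (1.36), Gtf2i (1.27) and Med28 (0.50). Of the higher ones, only Taf9b kept its call whichever library was left out, and Med28 lost it in every such fit.

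The same kind of test between the effects of A-485 and TSA at the late 2-cell stage picked out 25 members with a lower and 8 with a higher value under A-485. Of all genes tested, 12.7% were lower and 4.59% higher, and neither count of members is shown to be an excess over expressed genes. The lowest were Gtf2f1 (-2.89), Polr1e (-2.47), Med19 (-2.46) and Med29 (-2.31), and the highest were Gtf2h2 (3.16), Polr2m (1.84), Taf9b (1.41) and Polr2f (0.95). Polr2f lost its call in a fit without a DMSO library of the TSA experiment.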

How the results depend on the processing

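Scaling to mitochondrially encoded messenger RNA gave 82 members lower and 1 higher with A-485 at the late 2-cell stage, 64 and 2 from zygote to early 2-cell, 44 and 10 from zygote to late 2-cell, 80 and 0 in the late against early effect of A-485, 58 and 3 in A-485 against TSA, and 0 lower between the DMSO groups. Among the named genes it reversed 13 differences that were called with TMM factors or with this scaling. From zygote to early 2-cell these were Med10 (-1.10), Med13 (-0.29), Polr1b (-0.11), Polr2a (-0.28), Polr2f (-0.31) and Taf4b (-0.18). From zygote to late 2-cell they were Gtf2h1 (-1.09), Med10 (-1.13), Polr2b (-0.28), Polr3a (-1.25), Polr3d (-0.27) and Taf6l (-0.28), and in the late against early effect Med28 (-0.56). More members changed sign without such a call: those below 0 went from 60 to 89 of 97 from zygote to early 2-cell and from 39 to 69 from zygote to late 2-cell. Mitochondrial scaling kept all 54 members lower with A-485 and all 54 lower with TSA at the late 2-cell stage. Library totals kept 49 and 40 of these and gave 3 higher with TSA, DESeq2 kept 53 of each, and the fit of all 16 libraries kept 53 and 47. DESeq2 gave 2 members higher in the late against early effect, and the fit of all libraries gave 0 lower between the DMSO groups. The adjusted p alone gave 3 higher with TSA, 28 higher from zygote to early 2-cell, 14 lower from early to late 2-cell and 26 lower from zygote to late 2-cell. The cause of these changes was not tested, other than that the fold limit was dropped or the scaling moved all genes.

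Leaving out each library in turn gave 0 to 2 members lower between the DMSO groups, 1 to 3 higher in the late against early effect and 5 to 11 higher in A-485 against TSA, and kept in every fit 10 of 12 members lower with A-485 at the early 2-cell stage, 48 of 54 at the late 2-cell stage, 50 of 54 lower with TSA, 24 of 27 lower and 8 of 12 higher from zygote to early 2-cell, and 40 of 45 higher from early to late 2-cell. With only the peaks at or above the median fold enrichment of each list, open promoters made up 29.9%, 29.9%, 34.0% and 52.6% of members in the late 1-cell DMSO and A-485 and early 2-cell DMSO and A-485 lists. Within 2.5 kb they made up 85.6% at the early 2-cell stage with DMSO and 80.4% with A-485, the reverse of the order within 1 kb. The differences between libraries 1 and 2 correlated across genes at -0.03 to 0.05 in 7 comparisons, where replicate numbers did not pair the libraries, and at 0.48 between TSA and its DMSO group, where the same numbers went together. With 2 libraries a group and no label for it, this is a hint of pairing from the data and not the design. A fit with the replicate number as a block kept every call made without it and gave 12 members lower with A-485 at the early 2-cell stage, 55 at the late 2-cell stage, 54 with TSA and 14 higher from zygote to early 2-cell.

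With 2 libraries a group and few counts for Taf1c and Taf7l, small changes were not detectable, and an uncalled member is not shown to be unchanged.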
